A study of Mus musculus with 6 samples.

Results

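Transcripts of serotonin receptors were followed through mouse hippocampus after CerM treatment or vehicle. The members were 10 genes picked by name, Htr1a, Htr1b, Htr1d, Htr1f, Htr2a, Htr2c, Htr3a, Htr4, Htr5a and Htr7, out of 55414 genes in the expression table and out of 14 serotonin receptor genes in it. RNA sequencing covered 3 hippocampal libraries of mice given CerM and 3 of mice given vehicle. The titles call them biological replicates and do not say whether each came from its own animal, and p-values here reflect only how far the libraries vary. The labels do not spell out CerM, and they give no dose, duration, strain, sex or age. The series title places the work in a study of gut bacteria, ceramide lipids, depression induced by corticosterone and mitochondria. Values are TPM, a measure of transcript abundance that allows for transcript length, so levels can be compared between genes.

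Serotonin neurons of the brainstem raphe send axons into the hippocampus, where the receptors are made by the receiving cells. The family signals through several routes. Htr1 and Htr5 receptors couple to Gi/o proteins and lower cyclic AMP, Htr2 receptors couple to Gq and phospholipase C, Htr4, Htr6 and Htr7 couple to Gs and raise cyclic AMP, and Htr3 subunits form a cation channel. Hippocampal Htr1a and Htr4 are studied as targets in the response to antidepressants, and Htr2c is known for its strong expression in the choroid plexus, the epithelium that makes cerebrospinal fluid.

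Promoters of the 2 most abundant receptors, Htr2c and Htr1a, are shown because they differed in spread, with Htr2c the most variable of the tested members and Htr1a among the steadiest. The sequences run from 250 bases before to 50 after the RefSeq start in build GRCm38.p6, while the submitters' processing notes name GRCm39 for the data. Htr2c lies at chrX:146962263-146962562 on the plus strand and Htr1a at chr13:105443443-105443742 on the plus strand. Capitals mark a GC box, and both strands were searched for the letters TATAAA, for the GC box GGGCGG and for the cyclic AMP response element TGACGTCA, which do not overlap here.
Htr2c: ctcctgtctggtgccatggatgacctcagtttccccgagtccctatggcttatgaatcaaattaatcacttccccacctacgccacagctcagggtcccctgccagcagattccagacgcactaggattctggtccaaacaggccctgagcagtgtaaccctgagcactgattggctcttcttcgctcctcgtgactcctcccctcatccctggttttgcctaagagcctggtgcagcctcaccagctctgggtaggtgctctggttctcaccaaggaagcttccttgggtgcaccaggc
Htr1a: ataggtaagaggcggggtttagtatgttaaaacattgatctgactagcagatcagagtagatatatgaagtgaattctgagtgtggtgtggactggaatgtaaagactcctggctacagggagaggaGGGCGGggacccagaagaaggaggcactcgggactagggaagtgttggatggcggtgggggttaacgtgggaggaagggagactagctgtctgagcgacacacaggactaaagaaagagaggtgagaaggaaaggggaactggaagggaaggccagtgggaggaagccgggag
The Htr1a window held 1 GC box, a motif found in 35.7% of 32851 promoters of this length, and the Htr2c window held none of the 3 motifs. TATAAA occurred in 13.6% of promoters and TGACGTCA in 1.79%. The share of G and C was 56.3% for Htr2c and 52.3% for Htr1a, beside a median of 52.7% over all promoters examined. Of the 10 members, 8 had a promoter among those examined. Htr3a and Htr4 had none there, which does not show that RefSeq lacks them. In the GENCODE M21 annotation Htr1a, Htr1b, Htr1d and Htr1f are each coded by 1 exon, Htr5a by 2, Htr2a by 3, Htr2c and Htr7 by 4, Htr4 by 6 and Htr3a by 9. Only the transcript with the longest coding sequence of each receptor gene was compared. Between genes these shared at most 26 bases in a row, for Htr2a and Htr2c.

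The libraries held markers of the hippocampus, and some stood apart in what else they held. Markers of dentate granule cells (C1ql2, Prox1 and 4 others) summed to 87.2 to 112.5 TPM in CerM and 39.3 to 102.9 TPM in vehicle. The CA1 list (Mpped1, Wfs1 and 3 others) summed to 254.6 to 316.9 TPM in CerM and 259.0 to 288.7 TPM in vehicle, and the CA3 list (Nnat, Bok and 3 others) to 496 to 668 TPM in CerM and 498 to 593 TPM in vehicle. Choroid plexus markers (Ttr, Folr1 and 10 others) split the libraries into a high and a low set, each with both treatments. The high set held more CerM than vehicle libraries. All 12 markers had log2 fold changes above 0 (median 1.09), and 0 were called. They summed to 9423 and 11084 TPM in CerM replicates 1 and 3 and to 15899 TPM in vehicle replicate 3, against 314 TPM in CerM replicate 2 and 257 and 269 TPM in vehicle replicates 1 and 2. Vehicle replicate 1 held more neocortex marker RNA (Lamp5, Fezf2 and 6 others), 273 TPM against 113 to 118 TPM in the other 5 libraries, and was the lowest for dentate markers. For interneurons of the medial ganglionic eminence (Sst, Pvalb and 2 others) the sums were 685 to 918 TPM in CerM and 812 to 979.6 TPM in vehicle, and for thalamus and habenula (Prkcd, Tac2 and 4 others) 46.7 to 75.0 TPM in CerM and 38.6 to 52.4 TPM in vehicle. Oligodendrocyte markers (Mbp, Mobp and 4 others) summed to 6012 to 6953 TPM in CerM and 3807 to 6634 TPM in vehicle, astrocyte markers (Aldoc, Gfap and 4 others) to 1394 to 1757 TPM in CerM and 1353 to 1547 TPM in vehicle, and microglial markers (C1qa, Csf1r and 4 others) to 165 to 210.6 TPM in CerM and 173 to 183 TPM in vehicle. No marker on these lists was at 0 in every library. Library totals ran from 993379 to 995403 TPM, and how many reads lie behind a value cannot be read from TPM.

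No serotonin receptor passed the test when CerM was set against vehicle. Of the 10 members, 8 averaged 1 TPM or more across the libraries and were tested, while Htr1f and Htr1d lay below that. Limma called 0 of these 8 at an adjusted p below 0.05, where 0% of 14916 tested genes were called. None of the 8 had an unadjusted p under 0.05, beside 2.70% of all tested genes. The values of the groups overlapped for all 10 members, and groups that did not overlap made up 7.30% of tested genes. Log2 fold changes lay above 0 for 4 tested members and below 0 for 4, with a median of 0.02, beside a median of 0.03 over all tested genes, of which 58.8% lay above 0.

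**Figure D1:**
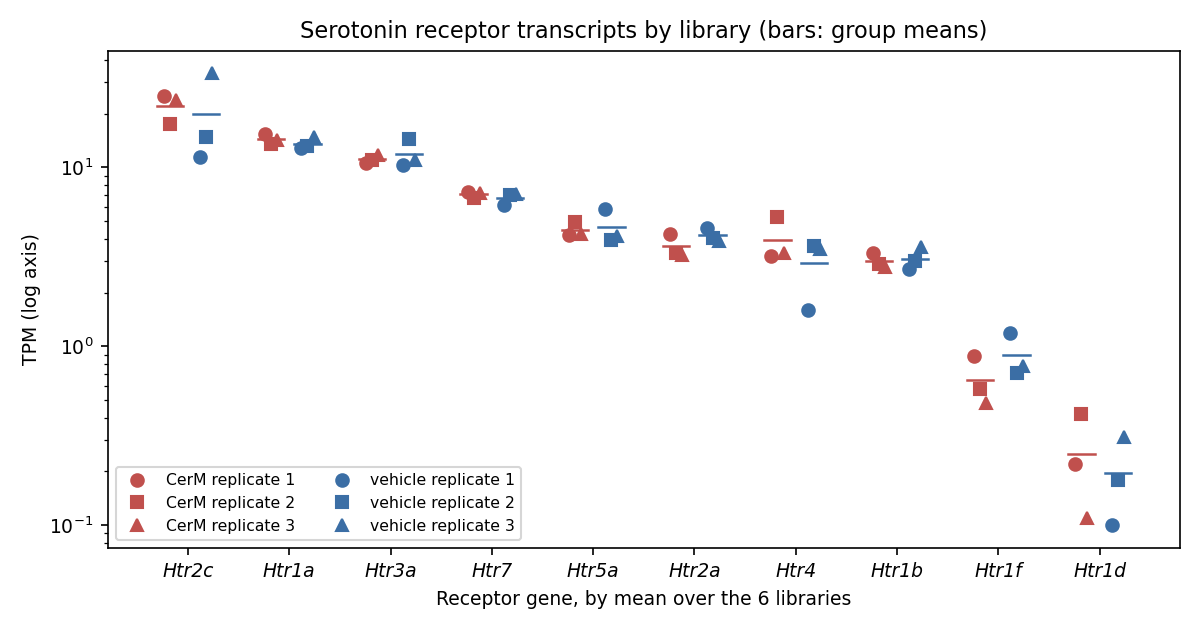
TPM of each receptor gene in each library on a log axis, CerM at the left and vehicle at the right of each gene, with bars at the group means. Group values overlap for every gene, and vehicle replicate 1 (blue circle) is the highest or the lowest point of each gene.

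**Figure D2:**
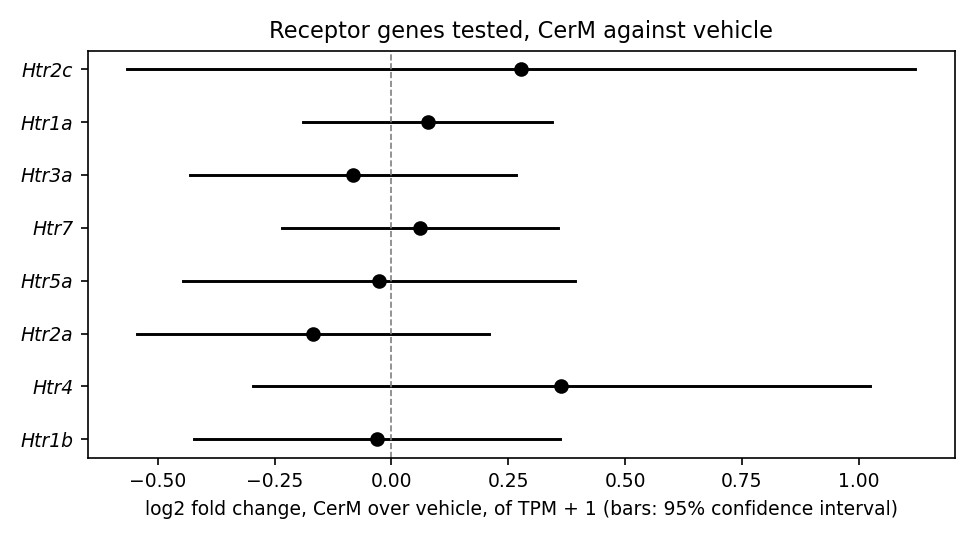
Log2 fold change of TPM + 1, CerM over vehicle, for the 8 receptor genes tested, with 95% confidence intervals from limma (n = 3 libraries a group). Every interval spans 0, and the widest are those of Htr2c (−0.57 to 1.12) and Htr4 (−0.30 to 1.02).

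Among the Gi/o-coupled receptors, Htr1a was the most abundant and varied little. Htr1a, the inhibitory receptor that sits on hippocampal pyramidal cells and on serotonin neurons themselves, had 15.5, 13.6 and 14.2 TPM in CerM replicates 1 to 3, against 12.9, 13.2 and 14.7 TPM in vehicle replicates 1 to 3. The groups overlapped, with means of 14.4 ± 0.96 TPM in CerM and 13.6 ± 0.97 TPM in vehicle (± SD over 3 libraries per group). Its log2 fold change was 0.08 (95% confidence interval −0.19 to 0.34; limma adjusted p = 0.989). The SD of Htr1a over the 6 libraries, 0.09 on the log2(TPM + 1) scale, was larger than that of 8.94% of tested genes, and the median tested gene had 0.19.

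Htr1b, an autoreceptor and heteroreceptor on axon terminals, had 3.31, 2.90 and 2.77 TPM in CerM, against 2.69, 2.99 and 3.59 TPM in vehicle. CerM replicates all fell inside the range of vehicle, and the log2 fold change was −0.03 (−0.42 to 0.36; adjusted p = 0.992). An antisense gene, D430036J16Rik, overlaps an exon of Htr1b and stood at 2.80, 3.24 and 2.85 TPM in CerM, against 3.36, 3.80 and 2.36 TPM in vehicle. The sources used here do not state whether strand was used in counting, so reads of Htr1b and of this gene may not be separable.

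Htr5a, a Gi/o-coupled receptor of neurons, had 4.19, 4.98 and 4.27 TPM in CerM, against 5.87, 3.91 and 4.13 TPM in vehicle. Vehicle replicate 1 was the highest and the other vehicle libraries were the lowest of the 6. The log2 fold change was −0.03 (−0.45 to 0.39; adjusted p = 0.994). It was 0.12 without vehicle replicate 1 and 0.10 with the neocortex marker score as a covariate. That score was 0.87 in vehicle replicate 1 and −0.25 to −0.10 in the other libraries, so both fits make nearly the same adjustment.

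The remaining Gi/o members averaged below 1 TPM. Htr1f, a receptor with high affinity for triptan drugs, had 0.88, 0.58 and 0.48 TPM in CerM, against 1.19, 0.71 and 0.78 TPM in vehicle. Htr1d, a close relative of Htr1b found on axon terminals, had 0.22, 0.42 and 0.11 TPM in CerM, against 0.10, 0.18 and 0.31 TPM in vehicle. Both ranges overlapped, and with no minimum level limma gave adjusted p = 0.934 for Htr1f (log2 fold change −0.20, −0.58 to 0.18) and 0.942 for Htr1d (0.06, −0.22 to 0.33). On this scale a difference in genes this low is understated.

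The Gq-coupled receptors held the most variable member. Htr2c had 25.1, 17.5 and 24.0 TPM in CerM replicates 1 to 3, against 11.4, 14.8 and 33.6 TPM in vehicle replicates 1 to 3. Vehicle held both the highest and the lowest library, and the means of 22.2 ± 4.11 TPM in CerM and 19.9 ± 11.96 TPM in vehicle (± SD over 3 libraries per group) differed by less than the spread. The log2 fold change was 0.28 (−0.57 to 1.12; adjusted p = 0.989). Its SD on the log2(TPM + 1) scale was 0.54, larger than that of 93.7% of tested genes.

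Htr2c was higher in the libraries that held more choroid plexus marker RNA. The 3 libraries with high choroid plexus markers, CerM replicates 1 and 3 and vehicle replicate 3, had a mean of 27.6 TPM, against 14.6 TPM in the other 3, a ratio of 1.89. All 12 choroid plexus markers parted the same libraries in the same way, Ttr, which encodes a thyroid hormone carrier, at 9123, 284 and 10713 TPM in CerM and 244, 244 and 15417 TPM in vehicle. Without Ttr the other 11 markers summed to 301 to 482 TPM in the libraries with high and 13.0 to 29.8 TPM in those with low values. In bulk tissue, more cells of a type and more RNA per cell cannot be told apart. Among the libraries with high markers Htr2c stood at 25.1 and 24.0 TPM in CerM against 33.6 TPM in vehicle, and among those with low markers at 17.5 TPM in CerM against 11.4 and 14.8 TPM in vehicle. The difference between treatments thus had opposite signs in the 2 sets, and the change of sign itself was not tested. With the choroid plexus marker score as a covariate, the log2 fold change of Htr2c was −0.02 (adjusted p = 1.00), and with the neocortex marker score as a covariate in its place it was 0.05. With sample weights it was 0.56 (unadjusted p = 0.0489, adjusted p = 0.275 in limma). Without vehicle replicate 3 it was 0.71 (unadjusted p = 0.00892, adjusted p = 0.752 in limma), and without vehicle replicate 1 it was −0.03. Htr1a and Htr7 were also higher in each of the 3 libraries with high markers than in each of the other 3, as were 5.50% of tested genes, by ratios of means of 1.12 and 1.08.

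**Figure D3:**
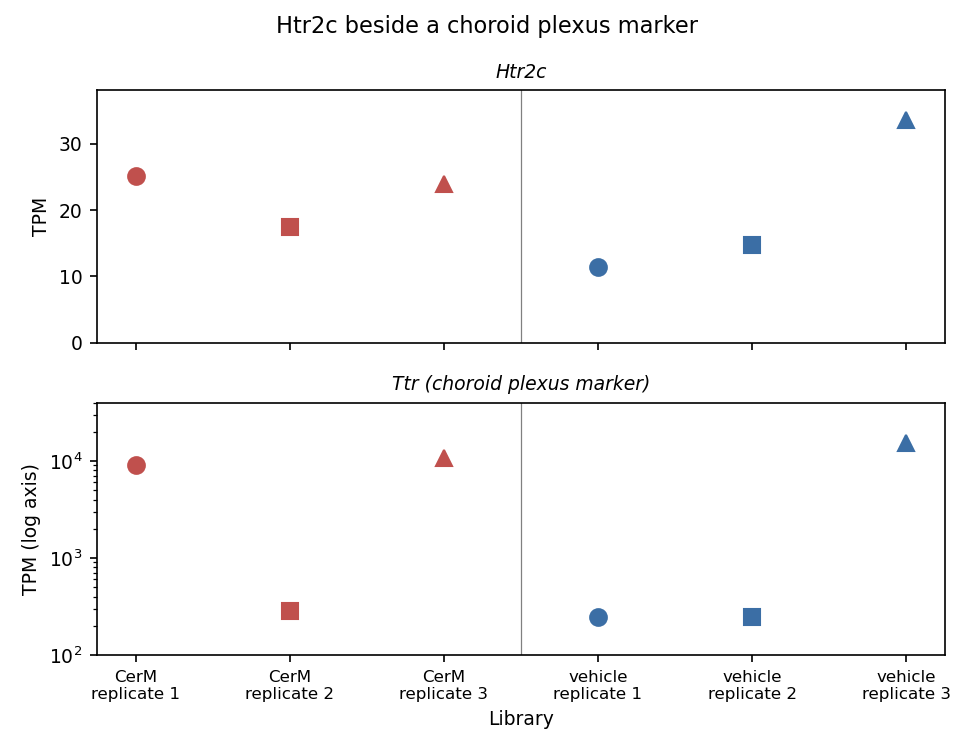
Htr2c (upper panel, linear TPM axis from 0) and the choroid plexus marker Ttr (lower panel, log TPM axis) in each library, CerM replicates at the left and vehicle replicates at the right. CerM replicates 1 and 3 and vehicle replicate 3 are the 3 highest libraries for both genes.

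Htr2a, the Gq-coupled receptor that is abundant in neocortical pyramidal cells, had 4.26, 3.34 and 3.26 TPM in CerM, against 4.60, 4.04 and 3.88 TPM in vehicle. CerM replicates 2 and 3 lay below every vehicle library and CerM replicate 1 lay above 2 of them. The means were 3.62 ± 0.56 TPM in CerM and 4.17 ± 0.38 TPM in vehicle, with a log2 fold change of −0.17 (−0.54 to 0.21; adjusted p = 0.989). The highest value belonged to vehicle replicate 1, the library with the most neocortex marker RNA. The log2 fold change was −0.11 without that library and −0.11 with the neocortex marker score as a covariate. That score mainly set the same library apart, so these fits cannot tell neocortex RNA from other traits of that library.

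The Gs-coupled members were Htr4 and Htr7. Htr4, a receptor that raises cyclic AMP in dentate granule cells and pyramidal cells, had 3.21, 5.29 and 3.34 TPM in CerM, against 1.59, 3.62 and 3.51 TPM in vehicle. CerM replicate 2 was the highest and vehicle replicate 1 the lowest of the 6, and the other 4 libraries lay between 3.21 and 3.62 TPM. The log2 fold change of 0.36 was the largest among tested members (−0.30 to 1.02; adjusted p = 0.989). It was 0.18 without CerM replicate 2 and 0.09 without vehicle replicate 1, so the difference between means rested on those libraries. The same 2 libraries were the highest and the lowest for the dentate granule marker score (0.37 in CerM replicate 2 and −1.01 in vehicle replicate 1) and for the CA3 marker score (0.30 in CerM replicate 2 and −0.49 in vehicle replicate 1), where a score is the mean deviation of log2(TPM + 1) from the 6-library mean. CerM replicate 2 was the highest library for 40.9% of tested genes, and vehicle replicate 1 was the lowest for 32.6%. With the neocortex marker score as a covariate, which mainly set vehicle replicate 1 apart, the log2 fold change of Htr4 was 0.12. With sample weights it was 0.01.

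Htr7 had the smallest spread of the tested members. This receptor, made by hippocampal and thalamic neurons, had 7.28, 6.78 and 7.21 TPM in CerM, against 6.18, 6.99 and 7.11 TPM in vehicle. The groups overlapped, and the log2 fold change was 0.06 (−0.23 to 0.36; adjusted p = 0.989). Its SD over the 6 libraries, 0.08 on the log2(TPM + 1) scale, exceeded that of 4.48% of tested genes. Quantile normalization turned the difference to −0.01.

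Htr3a, the subunit needed for a working serotonin-gated channel and a marker of interneurons from the caudal ganglionic eminence, had 10.6, 11.0 and 11.7 TPM in CerM, against 10.3, 14.5 and 11.0 TPM in vehicle. Vehicle replicate 2 stood above the other 5 libraries, which lay within 10.3 to 11.7 TPM. The log2 fold change was −0.08 (−0.43 to 0.27; adjusted p = 0.989), and it was 0.06 without vehicle replicate 2 and −0.26 with sample weights. Markers of those interneurons (Cck, Npy and 7 others, of which Lamp5 is also on the neocortex list) summed to 835 to 873 TPM in CerM and 851 to 1157 TPM in vehicle, with the highest sum in vehicle replicate 1 and 905.5 TPM in vehicle replicate 2. The library with the most Htr3a was not the one with the highest sum, but the markers did not move together. Vip, Cck, Reln, Npy and Lamp5 were highest in vehicle replicate 1, Calb2, Sncg and Cnr1 were lowest there, and Ndnf was neither. Whether Htr3a followed the content of these interneurons was not tested.

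Levels spanned Htr2c at the top to Htr1d at the bottom. By mean over the 6 libraries the order was Htr2c (21.1 TPM), Htr1a (14.0), Htr3a (11.5), Htr7 (6.93), Htr5a (4.56), Htr2a (3.90), Htr4 (3.43), Htr1b (3.04), Htr1f (0.77) and Htr1d (0.22). Htr2c lay above 59.8% and Htr1b above 17.1% of tested genes. Neighbours that kept their order in 6 of 6 libraries, with a gap larger than the SD of either, were Htr3a and Htr7, Htr7 and Htr5a, Htr1b and Htr1f, and Htr1f and Htr1d. Htr2c was above Htr1a in 5 of 6 libraries, the exception being vehicle replicate 1, and the gap of 7.05 TPM was less than the SD of Htr2c. Htr1a was above Htr3a in 5 of 6. Htr5a, Htr2a, Htr4 and Htr1b, all between 3.04 and 4.56 TPM, did not differ beyond their spread as neighbours within this set.

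Grouped by signalling route, most RNA of the 10 members was split between those of the Gi/o and Gq routes. The shares leave out Htr5b and Htr6, which averaged 5.81 and 6.77 TPM over the libraries. The 10 genes summed to 74.6, 66.4 and 71.3 TPM in CerM, against 56.8, 64.9 and 82.6 TPM in vehicle. Gi/o members took 32.3% ± 1.63 of this sum in CerM and 33.6% ± 5.90 in vehicle (± SD over 3 libraries per group). Gq members took 36.3% ± 4.32 in CerM and 34.2% ± 9.70 in vehicle, from 28.2% in vehicle replicate 1 to 45.4% in vehicle replicate 3. With high choroid plexus markers the Gq share was 39.4% and 38.2% in CerM replicates 1 and 3 and 45.4% in vehicle replicate 3. With low markers it was 31.4% in CerM replicate 2 and 28.2% and 29.0% in vehicle replicates 1 and 2. Gs members took 15.7% ± 2.20 in CerM and 14.3% ± 1.83 in vehicle, and the channel subunit took 15.7% ± 1.27 in CerM and 17.9% ± 4.52 in vehicle. Each difference between treatments was smaller than the SD of the more variable group. The sign of the difference turned without vehicle replicate 1 for Gi/o and Gq, and without vehicle replicate 2 for Gq and the channel. The summed level of the Gi/o members stayed between 21.0 and 24.1 TPM in all libraries, while that of the Gq members ran from 16.0 to 37.5 TPM.

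**Figure D4:**
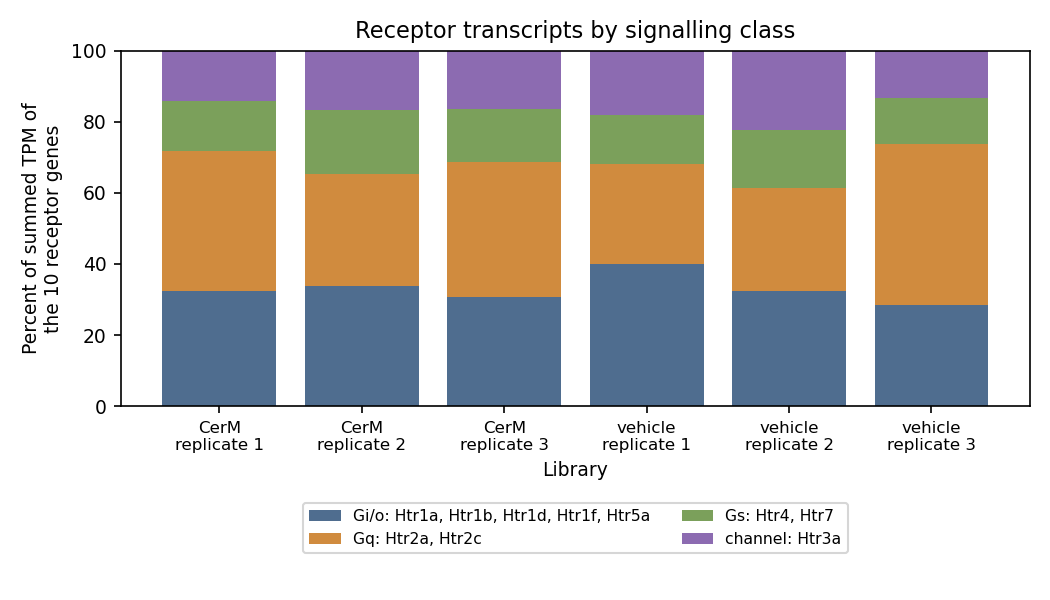
Share of the summed TPM of the 10 receptor genes held by each signalling class, in percent, for each library. The Gq share (orange) is largest in vehicle replicate 3 (45.4%) and smallest in vehicle replicate 1 (28.2%), and CerM libraries lie between them.

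Vehicle replicate 1 stood at an end of the range for each of the 10 members. It had the highest value of the 6 libraries for Htr1f, Htr2a and Htr5a and the lowest for Htr1a, Htr1b, Htr1d, Htr2c, Htr3a, Htr4 and Htr7, which makes 10 of 10 members, where it was the highest or lowest library for 49.5% of tested genes. No other library was at an end for more than 2 members, although CerM replicate 2 was at an end for 49.4% of tested genes. The 10 include Htr1f and Htr1d, which were too low to be tested. Some gaps were small, as for Htr1d, at 0.10 TPM against 0.11 TPM in CerM replicate 3. Another was Htr1a, at 12.9 TPM against 13.2 TPM in vehicle replicate 2. Outside the members, Htr5b was lowest in vehicle replicate 1, while Htr6, Htr2b and Htr3b were not at an end there. Deviations from the 6-library mean in vehicle replicate 1 were −0.75 for Htr2c and −0.73 for Htr4 on the log2(TPM + 1) scale, and 0.32 for Htr1f and for Htr5a and 0.20 for Htr2a. For Htr1a, Htr1b, Htr1d, Htr3a and Htr7 they lay between −0.15 and −0.11. The same library had the highest neocortex marker score (0.87) and the lowest choroid plexus (−2.19) and dentate granule (−1.01) scores, and the part of these tissues in the receptor values was not tested.

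**Figure D5:**
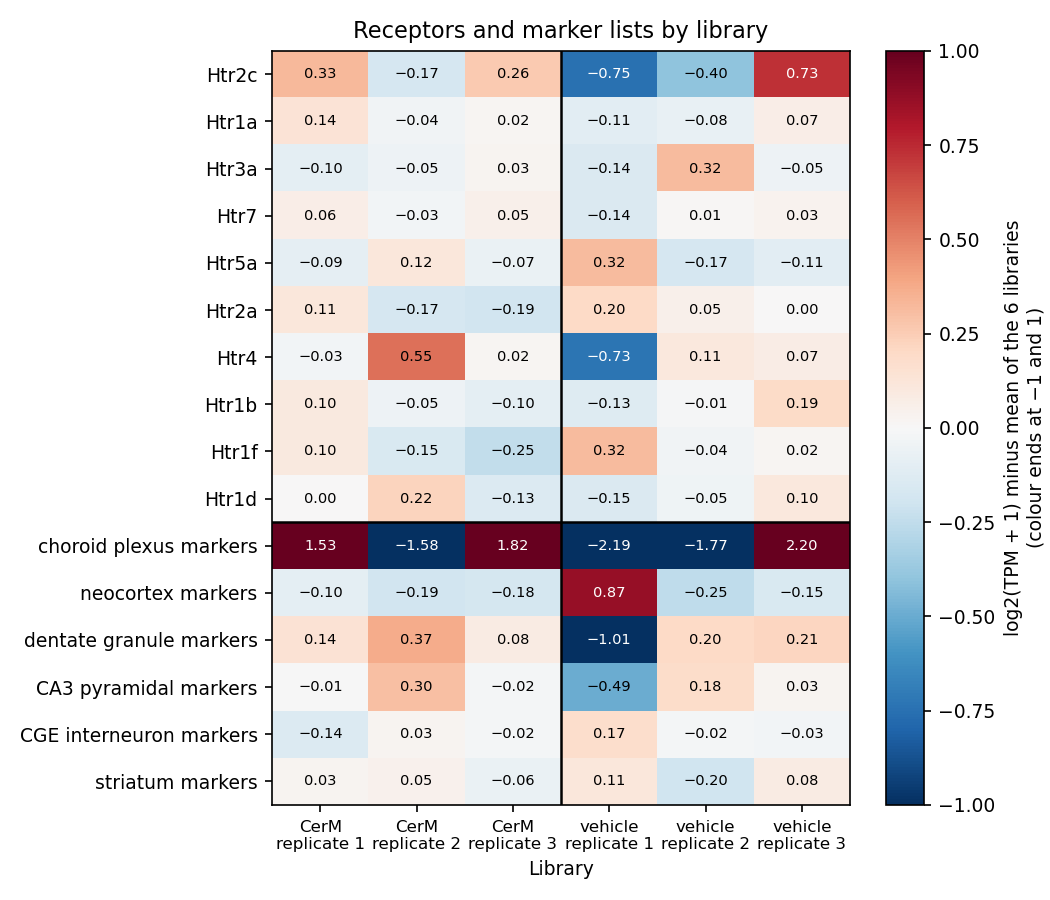
Deviation of log2(TPM + 1) from the mean of the 6 libraries for each receptor (upper block) and the mean deviation of each marker list (lower block), CerM replicates at the left and vehicle replicates at the right. Red is above and blue below the mean. The column of vehicle replicate 1 holds the highest or the lowest value of each receptor row, with −0.73 for Htr4 and 0.32 for Htr5a.

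Outside the members, 4 more receptor genes were in the table, of which Htr5b and Htr6 averaged 1 TPM or more and were tested, and neither passed. Htr5b, a rodent relative of Htr5a, had 7.75, 6.88 and 5.52 TPM in CerM, against 2.79, 5.43 and 6.48 TPM in vehicle. Its log2 fold change was 0.43 (−0.19 to 1.06; adjusted p = 0.989), and like Htr4 it was lowest in vehicle replicate 1. Htr6, a Gs-coupled receptor best known from striatum, had 4.26, 3.93 and 21.3 TPM in CerM, against 5.47, 2.28 and 3.35 TPM in vehicle. CerM replicate 3 stood alone, with the other 5 libraries between 2.28 and 5.47 TPM, and the log2 fold change was 0.88 (−0.47 to 2.24; adjusted p = 0.989). Striatal markers (Ppp1r1b, Rgs9 and 4 others) summed to 115 TPM in that library, within the range of 77.4 to 154.5 TPM of the others. Ppp1r1b alone had 98.2 TPM there, so the sum mostly follows that gene. The markers did not move together, with Adora2a highest (1.85 TPM) and Rgs9 lowest (6.63 TPM) in that library and the others at neither end. Whether Htr6 followed striatal tissue was not tested. Htr2b was at or below 0.13 TPM and Htr3b at or below 0.08 TPM in every library, each listed at 0 in at least 1.

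Genes whose levels ran most like those of a receptor over the 6 libraries were found by Pearson's r, which is given as a description. The closest were Mmp15 and Sntb1 for Htr2c (r = 0.994 and 0.993), Cyfip1 and Slc14a1 for Htr4 (0.999 and 0.999), Tmem106c and Bbc3 for Htr1a (0.997 and 0.984), and Ccdc34 and Pla2g12a for Htr1b (0.990 and 0.990). For the others they were Barx2 and Polr1d for Htr2a (0.989 and 0.987), Lrrc3 and Mrnip for Htr5a (0.993 and 0.993), Crls1 and Zfp39 for Htr3a (0.978 and 0.969), and Gas1 and Lnx2 for Htr7 (0.983 and 0.982). With 13264 candidate genes and only 6 libraries, each receptor had between 27 (Htr3a) and 1140 (Htr4) genes with r above 0.9. All pairs share the same 6 libraries and what those held.

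Genes that make, move and break down serotonin were not called either. Of 10 such genes 6 were tested, 5 with log2 fold changes above 0 and 1 below, where 58.8% of all tested genes lay above 0. Ddc, the enzyme that forms serotonin from its precursor, was at 7.82 ± 0.40 TPM in CerM and 7.71 ± 0.73 TPM in vehicle (± SD over 3 libraries per group). Maoa, which degrades serotonin and other amines, was at 14.2 ± 1.94 TPM in CerM and 13.1 ± 0.27 TPM in vehicle, and the related Maob at 21.3 ± 4.80 TPM in CerM and 19.0 ± 6.68 TPM in vehicle. Aldh2, which oxidises the aldehyde that results, had a log2 fold change of 0.09 (−0.35 to 0.54), and Slc18a2, the vesicular monoamine transporter, had −0.11 (−0.60 to 0.38). Slc29a4, a low-affinity serotonin transporter also made in choroid plexus, had 27.2, 30.2 and 30.8 TPM in CerM, against 12.6, 24.3 and 44.8 TPM in vehicle, with its highest and lowest values in the same libraries as Htr2c. Serotonin neurons have their cell bodies in the brainstem, and of their 4 markers Slc18a2 was the most abundant, at 2.51 to 4.75 TPM in CerM and 3.46 to 3.97 TPM in vehicle. Tph2, the neuronal enzyme of serotonin synthesis, had at most 0.73 TPM in CerM and 1.37 TPM in vehicle, and Slc6a4, the serotonin transporter that many antidepressants block, at most 0.02 TPM in CerM and 0.46 TPM in vehicle. Fev, a transcription factor of these neurons, was at or below 0.11 TPM, Tph1 stayed at or below 0.61 TPM and the transporter gene Slc22a3 at or below 0.51 TPM.

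Downstream of the receptors, 0 of 57 genes of signalling and of receptor partners were called. Over all tested genes 0% were called and 58.8% had log2 fold changes above 0 (median 0.03). The lists held 11 genes of the Gi/o route (6 above 0, median log2 fold change 0.00), 11 of the Gq route (8 above 0, median 0.09), 20 of the Gs and cyclic AMP route (13 above 0, median 0.04) and 15 receptor partners (12 above 0, median 0.05). S100a10, also called p11, an adaptor that binds Htr1b and Htr4 and brings them to the cell surface, had 43.5, 42.3 and 50.1 TPM in CerM, against 63.6, 51.8 and 53.3 TPM in vehicle. The groups did not overlap, and the log2 fold change of −0.30 (−0.58 to −0.03) had an unadjusted limma p of 0.0351 and did not hold after adjustment (adjusted p = 0.989). Anxa2, the partner of S100a10 in a complex, had 17.7, 15.4 and 32.7 TPM in CerM, against 13.6, 13.0 and 20.3 TPM in vehicle, with overlap. Rgs4, which shortens Gi/o and Gq signals, had 88.8, 100.3 and 95.3 TPM in CerM, against 177.4, 101.4 and 101.3 TPM in vehicle, groups that did not overlap, with the highest value in vehicle replicate 1. Gnas, the alpha subunit of Gs, was at 2086 ± 89.4 TPM in CerM and 2266 ± 26.1 TPM in vehicle, without overlap, with a log2 fold change of −0.12 (−0.29 to 0.05; adjusted p = 0.989). Gnai3 had 0.22 ± 0.17 (SE), Itpr1 0.21 ± 0.16, Prkcb −0.10 ± 0.09 and Adcy1 0.21 ± 0.18 on the same scale, each with groups that overlapped. Groups did not overlap for 1 Gi/o gene, 0 Gq genes, 1 Gs gene and 1 partner, beside 7.30% of all tested genes. The unadjusted limma p was under 0.05 for 1 partner and no gene of the other lists, beside 2.70% of all tested genes. The genes named here had the smallest p of their lists.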

How the data were processed

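RNA of mouse hippocampus was taken up in TRIzol, cleared of genomic DNA with DNase I and turned into 6 TruSeq libraries, per the labels' protocols. The submitters' processing notes list HISAT2, StringTie, RSEM and GRCm39 and give neither versions nor roles. The authors deposited TPM values per gene. TPM carries no read number, so errors are SDs over the 3 libraries of a group and no count test was used.

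Genes with a mean of at least 1 TPM were tested with limma 3.58.1 in R 4.3.3 on log2(TPM + 1), with a variance trend, two-sided, with Benjamini-Hochberg adjustment across the 14916 genes that entered, and called at an adjusted p below 0.05. Intervals are 95% confidence intervals of the fit. Fold changes are CerM over vehicle and understate changes of low genes. The test was checked on simulated data. Members and gene lists were chosen with earlier results of these data known. Named genes were all receptor genes, all genes of serotonin synthesis and transport, the 2 with the smallest p from each signalling list, the 2 most abundant of a marker list, and the 2 most alike each tested member. D430036J16Rik, and the interneuron and striatal markers beyond the 2 most abundant of their lists, were named after their values were seen.

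Gene structure came from GENCODE M21 and promoters from RefSeq, both on GRCm38. Figures and summaries used Python 3.11.15 with pandas 2.3.3 and matplotlib 3.10.9.

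Alternatives changed the pseudocount, the TPM minimum, the scaling, the variance trend and sample weights, added a replicate block or a choroid plexus or neocortex covariate, and left out each library. Fits within libraries of high or low choroid plexus markers were added after seeing the data.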

Additional observations from a re-analysis of the deposited data

How the results depend on the processing

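No member that was tested was called under any of 18 planned and 2 added settings. Members tested were 4 with the minimum of 5 TPM, 10 with no minimum and 8 otherwise. Htr5b and Htr6 were not followed through these settings. In 13 of these 20 settings, 0 genes of the whole table were called. The whole table gave 1 called gene with the neocortex covariate and 1 to 8 when a library was left out, with 8 without CerM replicate 3. Htr1a, Htr1f and Htr2a kept their sign in every setting that gave them a value. Signs turned in 20 of 194 values of the 10 members, and none of these values was called. Quantile normalization gave −0.0123 for Htr7. Sample weights gave −0.0259 for Htr1d and 0.0765 for Htr5a, and without a turn of sign 0.556 for Htr2c, 0.0114 for Htr4 and −0.265 for Htr3a. The choroid plexus covariate gave −0.016 for Htr2c and 0.0363 for Htr5a, and the neocortex covariate gave 0.101 for Htr5a. Leaving out each library in turn gave −0.102 to 0.0552 for Htr1b, −0.0366 to 0.141 for Htr1d, −0.026 to 0.713 for Htr2c, −0.173 to 0.0559 for Htr3a and −0.118 to 0.124 for Htr5a. The libraries with low choroid plexus markers, added after seeing the data, gave 0.0235 for Htr1b and 0.0421 for Htr5a. Those with high markers gave −0.171 for Htr1d, −0.438 for Htr2c, 0.0184 for Htr3a, −0.0774 for Htr4 and 0.0278 for Htr5a. In both sets a treatment is left with 1 library, which is assumed to vary like the others. The cause of these turns was not tested. Among the shares by signalling route, the high-marker set moved the difference, CerM minus vehicle, to 2.97 percentage points for Gi/o, −6.56 for Gq and 2.02 for the channel, against −1.38 for Gi/o, 2.16 for Gq and −2.18 for the channel over all libraries. Leaving out each library in turn gave −3.95 to 1.84 for Gi/o (1.84 without vehicle replicate 1), −0.83 to 7.76 for Gq (−0.83 without vehicle replicate 1, −0.44 without vehicle replicate 2, 7.76 without vehicle replicate 3), 0.14 to 2.42 for Gs (0.14 without CerM replicate 2) and −4.48 to 0.03 for the channel (0.03 without vehicle replicate 2, −4.48 without vehicle replicate 3).

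Replicate numbers 1 to 3 occur in both groups. Deviations from the group means correlated over genes at 0.01, 0.20 and 0.22 for libraries with the same number. The values for numbers 2 and 3 were the highest of all combinations, while vehicle replicate 1 correlated best with CerM replicate 2 (0.07). This cannot decide whether libraries were paired, because the deviations of a group sum to 0 over its 3 libraries. The titles name no pairs, so the numbers were not taken as pairs. The fit with the replicate number as a block called 0 genes and 0 receptors, as without the block, and gave Htr2c 0.28 and Htr4 0.36 as before. Precision is limited by 3 libraries a group and by a depth that TPM does not keep.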
